A study of Mus musculus with 11 samples.

Results

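miR-451a and miR-144 are the best known miRNAs of red blood cells, and the rows of mmu-miR-451a and mmu-miR-144-3p were picked by name as 2 of the 2304 features in the count table. They were followed through all 11 libraries of small RNA from mouse sperm, eggs and early embryos. The sperm came from the cauda epididymis of adult C57BL/6 males and formed 3 groups, with 2 libraries from males with a conditional knockout (cKO) of Dicer, 3 from males with a cKO of Drosha and 2 from wild-type (WT) males. Both knockouts were made with floxed alleles and a Cre active in the germ line, whose driver the labels do not name; with no messenger RNA in these files, the loss of either enzyme could not be looked at. Embryos of 3 kinds at the 2PN stage, when the paternal and maternal pronuclei are still apart, were made by injecting sperm of Dicer cKO, Drosha cKO or WT males, and gave 1 library each. Superovulated WT females gave 1 oocyte library. Nothing in the labels says that the libraries of a group are from different males, so the p-values reflect only how far these libraries differ, which may be technical.

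Most miRNAs are made in 2 cuts, the first by Drosha in the nucleus, which frees a hairpin from its primary transcript, and the second by Dicer in the cytoplasm, which removes the loop. miR-144 follows this route, whereas the hairpin of miR-451a is too short for Dicer and is cut by the slicer Ago2 and then trimmed, so that miR-451a needs Drosha but not Dicer. Both hairpins sit in 1 primary transcript that the erythroid factor GATA1 switches on, and miR-451a is among the most abundant miRNAs of mature red cells.

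The 2 hairpins lie on the plus strand of chromosome 11 with 99 bases between them (GRCm38.p6 coordinates and sequences from RefSeq, to which both rows matched by name). Mir144 spans chr11:78073005-78073070 and Mir451a spans chr11:78073170-78073241. The cluster is intergenic in that annotation, with Eral1 starting 135 bases beyond it and Flot2 ending 12571 bases before it. The mature RNAs are shown 5′ to 3′ with the seed, bases 2 to 8 by which a miRNA pairs with its targets, in capitals, because these neighbours in the genome differ in their seeds.
miR-451a: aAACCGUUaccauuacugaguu
miR-144-3p: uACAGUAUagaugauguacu
miR-144-5p: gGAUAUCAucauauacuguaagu
No other mature mouse miRNA in the RefSeq table had the seed of miR-451a or that of miR-144-3p. Over bases 2 to 7 alone, miR-144-3p shared its seed with miR-101a-3p, whose row is also in the count table and whose shared bases are in capitals in the next line.
miR-101a-3p: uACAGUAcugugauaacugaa

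The whole hairpins are given with the mature RNA in capitals, because its place shows the difference in processing.
Mir451a: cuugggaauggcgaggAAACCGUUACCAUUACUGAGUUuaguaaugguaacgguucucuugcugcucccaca
Mir144, with miR-144-3p in capitals: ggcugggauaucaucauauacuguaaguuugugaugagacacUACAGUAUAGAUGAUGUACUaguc
Folded with RNAfold, the Mir451a hairpin of 72 bases placed 18 of the 22 bases of miR-451a on its 5′ arm and the other 4 in its terminal loop, which was 4 bases long. The Mir144 hairpin of 66 bases had a loop of 6 bases and kept all 20 bases of miR-144-3p on the 3′ arm and all 23 of miR-144-5p on the 5′ arm, clear of the loop.

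Values are reads of a feature as a percent of all listed reads of its library, and listed reads numbered 12003 to 278890 in sperm and 2951 to 8967 in the egg and embryo libraries. Shares are relative amounts, and in bulk RNA fewer cells of a type and less RNA per cell cannot be told apart. Male germ cell markers (miR-34b-5p, miR-34c-5p and miR-449a-5p) made up 0.585% to 0.643% of listed reads in the Dicer cKO libraries, 1.18% to 1.92% in the Drosha cKO libraries and 13.6% to 14.2% in the WT libraries. These markers are themselves miRNAs, and most miRNAs need both enzymes. Their lower share in cKO sperm therefore does not measure germ cell content, since fewer germ cells and the knockout itself cannot be told apart. The labels' protocol describes pelleting the sperm and does not describe removing other cells.

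miR-451a was higher in Dicer cKO sperm than in WT sperm, by more than the spread between libraries. It held 3.36% and 2.66% of listed reads in the Dicer cKO libraries, against 0.324% and 0.158% in the WT libraries. The groups did not overlap, and the lower Dicer cKO share was 8.21 times the higher WT share. The share of all features whose groups separate in this way was not counted, here or in the later comparisons. Scaled by library totals alone, the median log2 change over all features tested was itself 0.62 in Dicer cKO sperm over WT sperm. With 4127 and 2880 reads, miR-451a was the 7th and 11th most abundant feature of the Dicer cKO libraries, whereas with 238 and 442 reads it was the 45th and 74th of the WT libraries. The fitted log2 change was 3.07 (SE 0.496, edgeR adjusted p = 0.000239, on the scale of TMM factors).

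miR-144-3p, the 3′ arm of the hairpin that Dicer cuts, was also higher in Dicer cKO sperm. It held 0.568% and 1.04% of listed reads in the Dicer cKO libraries, against 0.0368% and 0.0825% in the WT libraries. The groups again did not overlap. The fitted log2 change was 2.86 (SE 0.71, edgeR adjusted p = 0.00333). In this comparison 16.1% of the 335 features tested were called higher (47.2% were called in either direction), and both members were among those called higher. The median log2 change over all features tested was 0.03.

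Both calls in Dicer cKO sperm held with each sperm library left out in turn. The log2 change of miR-451a then lay between 2.46, without WT replicate 2, and 3.24, without Drosha cKO replicate 1; it was 2.49 without Dicer cKO replicate 1. That of miR-144-3p lay between 2.17, without WT replicate 1, and 3.67, without WT replicate 2.

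**Figure D1:**
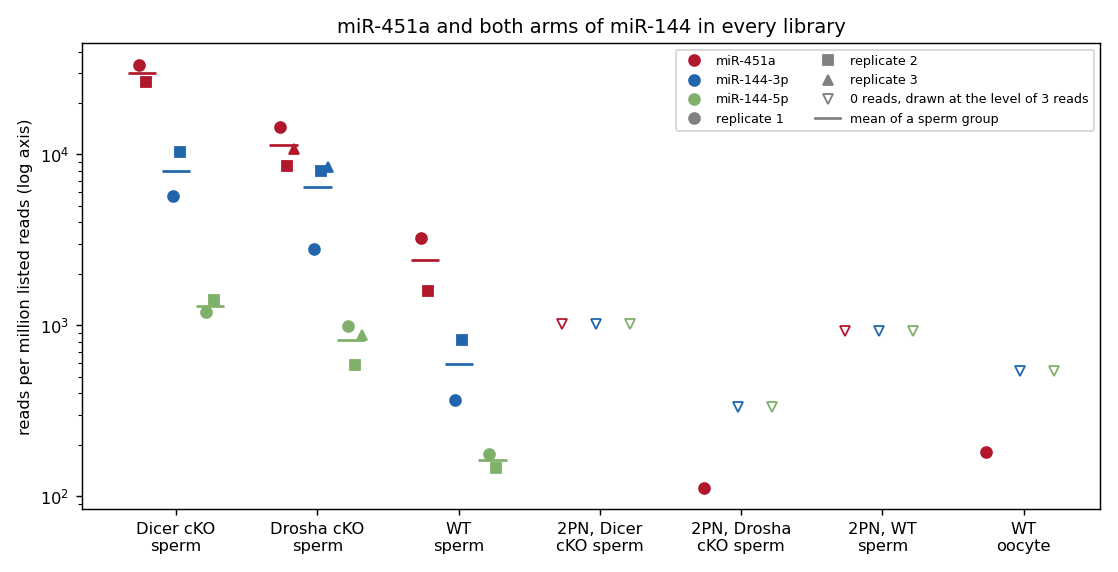
CPM (reads scaled to listed reads, log axis) of miR-451a, miR-144-3p and miR-144-5p in all 11 libraries. Points are libraries, with a shape for each replicate number, bars are means of the sperm groups, and open triangles mark 0 reads, drawn at the level that 3 reads would have; all 3 RNAs are higher in each cKO sperm library than in either WT sperm library, and neither arm of miR-144 has a read outside sperm.

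Drosha cKO sperm also had more of both members, though with less stable calls. miR-451a held 1.45%, 0.858% and 1.08% of listed reads in Drosha cKO sperm, against 0.324% and 0.158% in WT sperm. The groups did not overlap, and the lowest Drosha cKO share was 2.65 times the highest WT share. Scaled by library totals alone, the median log2 change over all features tested was itself 1.04 in Drosha cKO sperm over WT sperm. With TMM factors the lowest Drosha cKO value of miR-451a was 6611 CPM and the highest WT value 3607 CPM. The fitted log2 change was 1.41 (SE 0.442, edgeR adjusted p = 0.013). The call was lost without WT replicate 1 (adjusted p = 0.114), without WT replicate 2 (0.181), and without either Dicer cKO library (0.313 without replicate 1 and 0.263 without replicate 2). The log2 change was then 1.09, 0.80, 0.77 and 0.80. It was also lost with only the 2 groups compared (edgeR adjusted p = 0.0956), with the authors' library divisor (0.242) and when no low-count filter was used (0.525).

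miR-144-3p held 0.278%, 0.800% and 0.848% of listed reads in Drosha cKO sperm, against 0.0368% and 0.0825% in WT sperm. The groups did not overlap on this scale, but in the authors' RPM values they did, at 75.1, 233 and 179 RPM in Drosha cKO sperm and 7.93 and 82.9 RPM in WT sperm. With TMM factors the lowest Drosha cKO value of miR-144-3p was 2335 CPM and the highest WT value 1661 CPM. The fitted log2 change was 2.24 (SE 0.665, edgeR adjusted p = 0.00983). Both members were called higher, as were 22.1% of the 335 features tested (33.1% were called lower and 55.2% in either direction), and the median log2 change over all of these was 0.05. The call of miR-144-3p was lost without WT replicate 1 (edgeR adjusted p = 0.217, log2 change 1.05), without the 2 shallow Drosha cKO libraries (0.301, log2 change 0.97), with the authors' library divisor (0.121) and when no low-count filter was used (0.17). Those 2 libraries, replicates 2 and 3 with 12003 and 15921 listed reads, held the higher Drosha cKO shares of miR-144-3p and the lower ones of miR-451a. Without WT replicate 2 its log2 change was 3.06. The comparisons of Dicer cKO and of Drosha cKO share their WT libraries.

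Set directly against each other, the knockouts gave no difference past the edgeR test in either member. miR-451a held 3.36% and 2.66% of listed reads in the Dicer cKO libraries, against 1.45%, 0.858% and 1.08% in the Drosha cKO libraries, with no overlap, and its fitted log2 change was 1.66 (95% interval 0.78 to 2.54, edgeR adjusted p = 0.0694). That p fell to 0.000163 without WT replicate 1 and 0.00121 without WT replicate 2. It was also past the threshold with DESeq2 (0.0118), with only the 2 groups compared (edgeR, 0.00747) and with library totals alone (edgeR, 0.0494). The shares of miR-144-3p overlapped, but the authors' RPM values did not, at 252 and 729 RPM in Dicer cKO sperm and 75.1, 233 and 179 RPM in Drosha cKO sperm. Its log2 change was 0.62 (95% interval -0.65 to 1.89, edgeR adjusted p = 0.603). In this comparison edgeR called 0 of 335 features (0%), with 65 at an unadjusted p under 0.05, and DESeq2 called 18.

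miR-144-5p, the other arm of the miR-144 hairpin, belongs to the red cell list but not to the members. It held 0.120% and 0.141% of listed reads in the Dicer cKO libraries, 0.0991%, 0.0583% and 0.0879% in the Drosha cKO libraries, and 0.0177% and 0.0147% in the WT libraries. All 5 cKO libraries lay above both WT libraries. Against WT its log2 change was 2.31 (SE 0.655, edgeR adjusted p = 0.0086) in Dicer cKO sperm and 1.42 (SE 0.618, edgeR adjusted p = 0.0618) in Drosha cKO sperm. Of 6 names on the red cell list 3 had a row, all tested, of which 3 were called higher in Dicer cKO sperm, where 16.1% of all features tested were, and 2 in Drosha cKO sperm, where 22.1% were. The rows of miR-486-3p and miR-486a-3p, from another red cell and muscle hairpin, had at most 1 read in any library. miR-451b, annotated on the strand opposite to miR-451a, had 0 reads in all 11 libraries. The 5′ arms of miR-486 had no row under the names on the red cell list. Rows under other names were not looked up, so these counts do not show that miR-486 is absent.

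**Figure D2:**
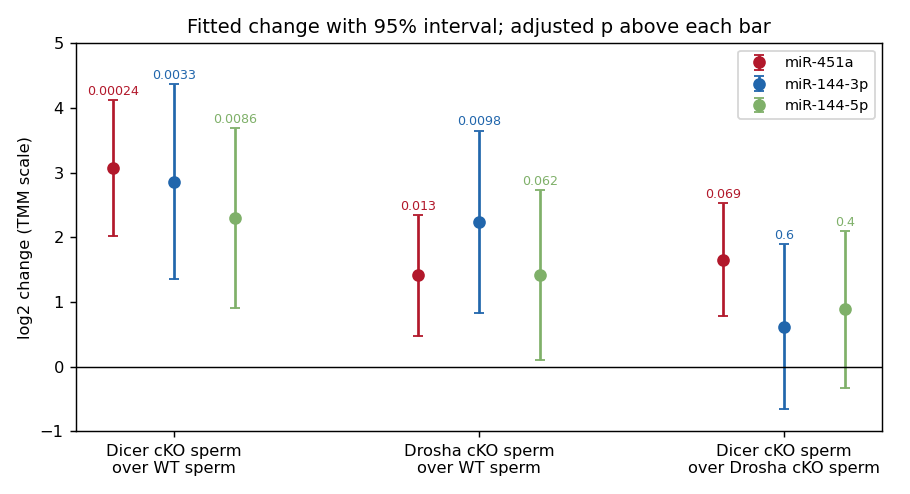
Fitted log2 change of miR-451a, miR-144-3p and miR-144-5p in the 3 sperm comparisons, with 95% intervals for each feature and the edgeR adjusted p above each. All intervals against WT lie above 0, and those of both miR-144 arms for Dicer cKO over Drosha cKO sperm include 0.

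The ratio of miR-451a to miR-144-3p reads sets the RNA made without Dicer against its neighbour made with it, and needs no scaling between libraries. It counts reads and was not corrected for how well each sequence is captured. There were 5.90 reads of miR-451a per read of miR-144-3p in Dicer cKO replicate 1 and 2.56 in replicate 2. Drosha cKO replicates 1, 2 and 3 had 5.20, 1.07 and 1.27. WT replicates 1 and 2 had 8.81 (95% exact interval 5.91 to 13.7) and 1.92 (1.63 to 2.26). In each of the 3 groups the library numbered 1 had the highest ratio, and its exact interval did not meet that of the other libraries of its group.

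No difference in the ratio between groups passed the exact permutation test, which cannot reach the threshold at these group sizes. The mean log2 ratio was 1.96 ± 0.851 in Dicer cKO sperm (SD, n = 2), 0.94 ± 1.25 in Drosha cKO sperm (n = 3) and 2.03 ± 1.54 in WT sperm (n = 2). The Dicer cKO mean less the WT mean was -0.07, with p = 1.0 in an exact permutation test over libraries, two-sided, where the smallest p these group sizes allow is 0.333. The Drosha cKO mean less the WT mean was -1.09 (exact permutation p = 0.4, smallest possible 0.2), and the Dicer cKO mean less the Drosha cKO mean was 1.02 (exact permutation p = 0.4, smallest possible 0.2). The first 2 differences turned positive without WT replicate 1, at 1.02 and 0.0013, and the first also without Dicer cKO replicate 2, at 0.53. Dicer cKO less Drosha cKO was 0.41 without Dicer cKO replicate 1. Between libraries of the same number, Drosha cKO less WT was -0.74 for number 1 and -0.84 for number 2, whereas Dicer cKO less WT was -0.56 and 0.42.

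Set against the miR-144-5p arm, miR-451a was again highest in the library numbered 1 in Dicer cKO and WT sperm but not in Drosha cKO sperm. There were 27.9 and 18.9 reads of miR-451a per read of miR-144-5p in the Dicer cKO libraries, 14.6, 14.7 and 12.3 in the Drosha cKO libraries, and 18.3 and 10.8 in the WT libraries. The exact intervals of the 2 Dicer cKO libraries did not meet, those of the 2 WT libraries overlapped, and the Drosha cKO libraries lay close together. Reads of miR-144-3p per read of miR-144-5p ran from 2.08, in WT replicate 1, to 13.7, in Drosha cKO replicate 2.

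**Figure D3:**
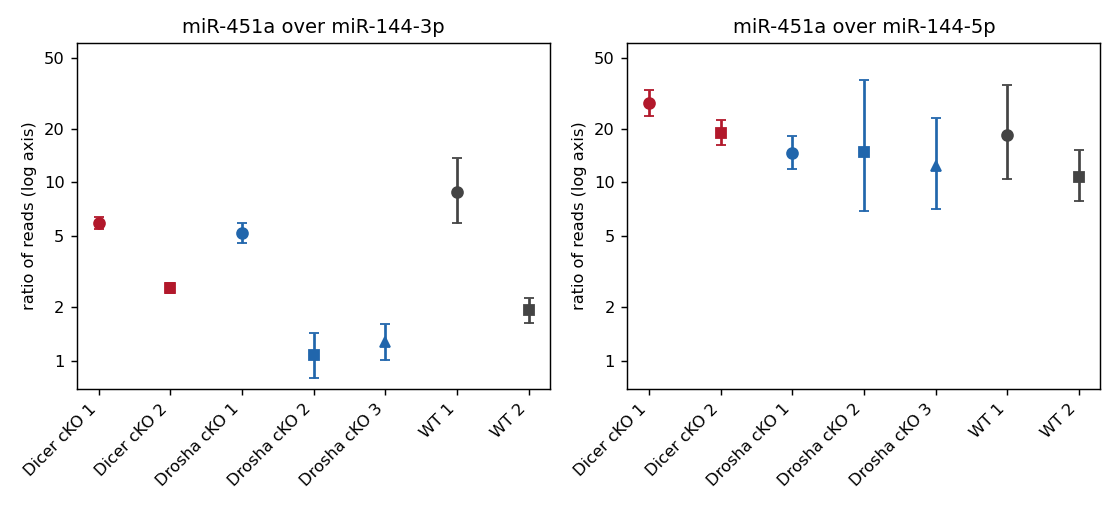
Reads of miR-451a per read of miR-144-3p (left) and per read of miR-144-5p (right) in the 7 sperm libraries, on log axes. Bars are 95% exact intervals for counting error; on the left the library numbered 1 of each group is the highest, from 5.20 to 8.81, and on the right the 3 Drosha cKO libraries lie between 12.3 and 14.7.

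Marker miRNAs of other cells moved in the same libraries. The 3 red cell RNAs together made up 3.84% to 4.04% of listed reads in the Dicer cKO libraries, 1.72% to 2.02% in the Drosha cKO libraries and 0.256% to 0.379% in the WT libraries. The 6 leukocyte rows found for 7 names, of which miR-142a-5p had 0 reads in sperm, summed to 1.12% to 1.32% in the Dicer cKO, 0.434% to 0.558% in the Drosha cKO and 0.164% to 0.272% in the WT libraries. Epithelial miRNAs (miR-200a-3p, miR-200b-3p, miR-200c-3p, miR-141-3p and miR-429-3p) summed to 13.0% to 16.0% in the Dicer cKO, 11.0% to 13.9% in the Drosha cKO and 1.57% to 1.81% in the WT libraries. As shares of listed reads, no cKO library overlapped a WT library in any of these lists. The share of all features that separate in this way was not counted. With library totals alone, the median log2 change over all features tested was 0.62 in Dicer cKO and 1.04 in Drosha cKO sperm over WT sperm. Scaled with TMM factors, the leukocyte sums of the Drosha cKO libraries lay between those of the WT libraries. The part of any of these cells in the levels of miR-451a and miR-144 was not tested.

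Within the leukocyte list the rows did not all move 1 way. Of 5 tested, 2 were called higher in Dicer cKO sperm (16.1% of all features tested), with a median log2 change of 2.36. In Drosha cKO sperm 2 were called higher (22.1% of all features tested) and 1 lower (33.1%), with a median of 2.01. miR-150-5p, a miRNA of mature lymphocytes, rose by 4.01 in Dicer cKO and 2.69 in Drosha cKO sperm on the log2 scale (edgeR adjusted p = 0.000354 and 0.0026), and miR-223-3p, a myeloid miRNA, rose by 2.73 and 2.01 (edgeR adjusted p = 0.00195 and 0.00947). miR-142-3p, found in most blood cells, had log2 changes of 1.13 and -0.79 (edgeR adjusted p = 0.141 and 0.244), and the other arm, miR-142-5p, was the row called lower in Drosha cKO sperm (-2.68, edgeR adjusted p = 0.0277). miR-126a-3p, a miRNA of endothelium and platelets, had log2 changes of 2.08 and 1.12 (edgeR adjusted p = 0.026 and 0.172). All 5 epithelial rows were called higher in both knockouts, with medians of 2.50 in Dicer cKO and 1.84 in Drosha cKO sperm, beside the same shares of all features.

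Set against other blood miRNAs within each library, miR-451a overlapped between knockout and WT sperm, although each cKO library lay above the WT library of its own number where there was one. There were 2.99 and 2.02 reads of miR-451a per read of the leukocyte rows in the Dicer cKO libraries, 3.34, 1.54 and 2.00 in the Drosha cKO libraries, and 1.98 and 0.583 in the WT libraries, so that WT replicate 1 lay among the cKO libraries. For miR-144-3p the ratios were 0.507 and 0.788 in the Dicer cKO, 0.642, 1.43 and 1.57 in the Drosha cKO, and 0.225 and 0.303 in the WT libraries, with every cKO library above both WT libraries. Per read of the epithelial rows, miR-451a had 0.258 and 0.166 reads in the Dicer cKO libraries, 0.127, 0.0617 and 0.0978 in the Drosha cKO libraries, and 0.206 and 0.0876 in the WT libraries. The WT libraries lay within the range of the cKO libraries on that scale. For miR-144-3p these ratios were 0.0437 and 0.0648 in the Dicer cKO, 0.0243, 0.0575 and 0.0768 in the Drosha cKO, and 0.0234 and 0.0456 in the WT libraries, with WT replicate 1 the lowest of all and each cKO library above the WT library of its own number where there was one.

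**Figure D4:**
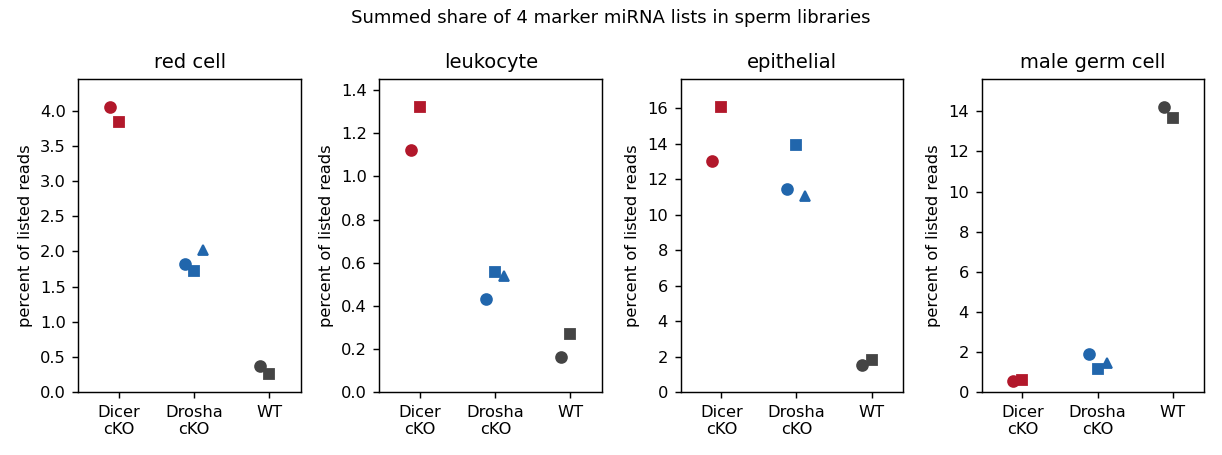
Percent of listed reads in the 7 sperm libraries for the red cell, leukocyte, epithelial and male germ cell lists, each on its own axis from 0. Circles, squares and triangles are replicates 1, 2 and 3. As shares of listed reads, the first 3 lists are higher in every cKO library than in WT. The male germ cell list is lower, at 0.585% to 1.92% in cKO sperm and 13.6% to 14.2% in WT sperm.

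The features whose profile over the 7 sperm libraries was most like that of miR-451a were miR-204-5p, miR-144-5p, miR-223-3p, miR-34a-5p and miR-10a-5p, with a mean absolute difference of 0.206, 0.347, 0.38, 0.387 and 0.433 on the log2 scale after each profile was centred. miR-144-3p came 104th of 334, at 0.97, although it is cut from the same transcript. The closest to miR-144-3p were miR-200a-3p (0.274), miR-137-3p (0.335), miR-222-3p (0.344), miR-200b-3p (0.351) and miR-101a-3p (0.443), with miR-144-5p 22nd and miR-451a 70th. The fifth of these, miR-101a-3p, is the miRNA that shares bases 2 to 7 with miR-144-3p. Its log2 change was 3.04 in Dicer cKO sperm and 2.37 in Drosha cKO sperm. With TMM factors miR-137-3p had only 0 and 14.4 CPM in the WT libraries, so its place rests on few reads. These likenesses describe 7 libraries that share depth and group differences, and carry no test.

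In oocytes and 2PN embryos neither member rose above the level of single reads. miR-451a had 0 of 2951 reads in 2PN embryos from Dicer cKO sperm, 1 of 8967 in those from Drosha cKO sperm, 0 of 3243 in those from WT sperm, and 1 of 5530 in the WT oocyte library. With 3 reads as the floor, the counts of 0 allow a share of up to 0.102% in 2PN embryos from Dicer cKO sperm and 0.0925% in those from WT sperm. Their upper 95% exact limits were 0.125% and 0.114%. The single reads correspond to 0.0112% (95% exact interval 0.000282 to 0.0621) in 2PN embryos from Drosha cKO sperm and 0.0181% (0.000458 to 0.101) in oocytes. All 4 values are at or under the floor of 3 reads, so no fold between these libraries is given. miR-144-3p and miR-144-5p had 0 reads in all 4. Of the leukocyte rows, miR-155-5p, a miRNA of activated lymphocytes, had 13 reads in 2PN embryos from Dicer cKO sperm, 97 in those from Drosha cKO sperm, 11 in those from WT sperm and 53 in oocytes, and the other rows had at most 1.

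Against sperm libraries from males of the same genotype, the embryos held less miR-451a as a share. The labels do not tie these sperm libraries to the males that fathered the embryos. An embryo also holds the RNA of the egg, so a lower share does not measure how much miR-451a from sperm was lost or kept. At the shares of the Dicer cKO sperm libraries, the 2PN library from such sperm would have held 99.0 and 78.6 reads of miR-451a, against the 0 counted. At those of the Drosha cKO sperm libraries, the 2PN library from such sperm would have held 129.9, 76.9 and 96.9, against the 1 counted. The upper 95% exact limit of the embryo's share over the sperm's was 0.0373 and 0.047 for Dicer cKO sperm replicates 1 and 2, and at most 0.074 for the Drosha cKO sperm libraries. At the lower and higher WT sperm share, the 2PN library from WT sperm would have held 5.14 and 10.5 reads of miR-451a, and the oocyte library 8.76 and 17.9. The share of miR-451a in oocytes was 0.114 times that of WT sperm replicate 2 (95% exact interval 0.00288 to 0.639) and 0.0558 times that of replicate 1 (0.00141 to 0.314). For miR-144-3p the shares of Dicer cKO sperm would have given 16.8 and 30.7 reads in the 2PN library from such sperm, and those of Drosha cKO sperm 25.0, 71.7 and 76.0 in theirs, against 0 counted in both. A share of miR-144-3p like that of WT sperm was not detectable at this depth in the WT 2PN library, where it would give 1.19 and 2.67 reads. Intervals and floors cover counting error only, each of these libraries stands alone, and amounts per cell were not measured.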

How the data were processed

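Small RNA was sequenced from 7 sperm, 1 oocyte and 3 2PN embryo libraries. Per the file headers and values, the authors deposited raw read counts per mature miRNA or endo-siRNA, and a table of RPM values that the authors made by dividing each count by 1 whole number per library (412523 to 3743577), for which the sources used here give no meaning. Bowtie and mm10 are named in the submitters' processing notes; the counting rule is not given. Members, lists and tests were chosen with earlier results of these data known. Counts of the 7 sperm libraries were fitted with edgeR 4.0.16 under R 4.3.3 (TMM factors, default expression filter, 335 features tested, quasi-likelihood test, two-sided, Benjamini-Hochberg adjustment over all of them, threshold 0.05, biological coefficient of variation 0.459). DESeq2 1.42.0 was an alternative. The fit was tested on simulated data. TMM factors were 1.05 and 1.06 in Dicer cKO, 1.19 to 1.30 in Drosha cKO and 0.899 and 0.497 in WT sperm. Replicates varied beyond counting error (chi-square per degree of freedom 7.19 to 54.4). Ratios used log2 with 0.5 added to each count. Intervals are exact (Clopper-Pearson, 95%) or from the edgeR SE. Named features were the members, the red cell list, marker lists and, for each member, the 5 tested features of most similar profile (log2 CPM, prior count 2). Hairpins were folded with RNAfold 2.7.2. The genome sequence at hand, of a different build, was not used.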

Additional observations from a re-analysis of the deposited data

How the results depend on the processing

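Over 15 alternatives for each fitted change, all changes of miR-451a and miR-144-3p kept their direction, and both Dicer cKO over WT calls kept theirs. Drosha cKO over WT for miR-451a was 1.34 with the authors' divisor, 1.21 without a low-count filter, 1.11 with only the 2 groups compared, and 0.77 to 1.68 with 1 library left out. For miR-144-3p it was 1.83, 1.82 without the filter, 0.97 without both shallow Drosha cKO libraries, and 1.05 to 3.06 with 1 left out. Dicer cKO over Drosha cKO for miR-451a passed the test with library totals alone (1.41), DESeq2 (1.67) and the 2 groups alone (1.69), and was 1.47 to 2.27 with 1 library left out. Features called numbered 114 with the divisor and 112 without the filter for Drosha cKO over WT, against 185. For Dicer cKO over Drosha cKO they numbered 13 with library totals, 1 with the divisor, 1 without the filter, 18 with DESeq2, 31 with the 2 groups alone and 0 to 39 with 1 library left out, against 0. With library totals alone the median change of all features was 0.62 for Dicer cKO and 1.04 for Drosha cKO, where miR-451a stood at 3.65 and 2.24 and miR-144-3p at 3.72 and 3.38. From summed counts the miR-451a to miR-144-3p difference from WT was 0.54 for Dicer cKO and 0.36 for Drosha cKO, and with 1 library left out it was -1.16 to 1.02 and -2.17 to 0.0013. The cause was not tested.

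Same-numbered sperm libraries deviated together over 159 features (correlations 0.25 to 0.595), but each comparison has 2 such pairs at most and the labels give the number no meaning. With the number as a block, miR-451a changed by 3.06, 1.41 and 1.64 and miR-144-3p by 3.11, 2.14 and 0.97 in the 3 comparisons, no call of either was lost or gained, and features called numbered 175, 184 and 8, against 158, 185 and 0. Depth limits the oocyte and 2PN values, where 3 reads are 0.0335% to 0.102% of listed reads.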

Other observations

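The division of miR-144-3p by library number was followed across other features after its values were seen. Among 159 features with a mean of at least 50 reads, log2 CPM in the libraries numbered 2 and 3 less that in the library numbered 1 was 0.86 for miR-144-3p in Dicer cKO sperm, 1.43 in Drosha cKO sperm and 1.96 in WT sperm. Its mean over the groups, 1.42, was the fifth highest, against a median of 0.15 over all 159. miR-144-3p was 1 of 41 features that were higher outside library 1 in all 3 groups, and 24 were lower in all 3. For miR-451a these differences were -0.34, -0.71 and -0.18, and for miR-144-5p 0.21, -0.57 and 0.54. No cause was tested.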
